A study of Mus musculus with 2 samples.

Results

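Foxp1, Foxp2 and Foxp4 were followed across the progenitor and neuron classes of the early mouse telencephalon. They were taken by gene symbol, and are 3 of the 28001 features counted in 1 library, of septal explants, and 3 of the 32286 counted in the other, of the telencephalic vesicle. Both libraries hold droplet single-cell RNA-seq counts of unique molecular identifiers (UMIs) from mouse embryos of the C57BL/6J background, labelled wild type, and serve to describe which cell types the septum and its neighbouring territories contain. The septal explants pooled 8 embryos of stage E11.5 (embryonic day) from 2 litters, which carried PGKCre and the Rosa26YFP reporter, with 4 embryos of E12.5 from 2 litters, which carried Dbx1Cre and Rosa26tdTomato. PGKCre recombines in most or all cells of the embryo, and Dbx1Cre in cells whose lineage expressed Dbx1. The telencephalic vesicle library pooled 3 embryos from 2 litters, without a reporter, labelled E12 (between E11.5 and E12 in the study's methods). Each library is 1 sample in which the embryos cannot be told apart, so no test between samples was possible and every interval below is an exact 95% interval for counting error only.

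Foxp1, Foxp2 and Foxp4 belong to the FoxP family of forkhead transcription factors, which bind DNA through the forkhead domain, pair with themselves or each other through a leucine zipper, and act mostly as repressors. In the forebrain, Foxp1 is known from striatal projection neurons and from neurons of the cortical plate, Foxp2 from deep-layer cortical neurons and striatal neurons and from its association with speech, and Foxp4 from progenitors and young neurons. The remaining family member, Foxp3, a regulator of T cells, had 5 UMIs in the septal library and 25 in the vesicle library.

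On GRCm38 (mm10), Foxp1 (ENSMUSG00000030067) lies at chr6:98925338-99522721 on the minus strand and Foxp2 (ENSMUSG00000029563) at chr6:14901349-15441977 on the plus strand. Foxp4 (ENSMUSG00000023991) lies at chr17:47867133-47924645 on the minus strand and spans 57513 bases, against 597384 for Foxp1 and 540629 for Foxp2. The coding sequences of the annotated transcripts chosen here are 2118, 2217 and 2055 bases long, in the order Foxp1, Foxp2, Foxp4. The longest identical run of coding bases was 35 between Foxp1 and Foxp2, 21 between Foxp1 and Foxp4, and 20 between Foxp2 and Foxp4. None of the 50-base words of the annotated transcripts was shared between the genes (0 words, out of 14132 of Foxp1, 16641 of Foxp2 and 5019 of Foxp4). Foxp1 overlaps 4 annotated genes on its own strand, including the protein-coding model Gm20696, and Foxp2 overlaps the miRNA Gm25470 on its own strand. Reads from these same-strand overlaps could not be assigned with certainty. Foxp4 overlaps the antisense gene Gm15556, which lies on the opposite strand.

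After removal of barcodes with an outlying mitochondrial share and of doublets, 5367 of 5827 barcodes were kept for the septal explants and 11587 of 14283 for the telencephalic vesicle, with medians of 12857 and 8986 UMIs per cell. The libraries shared 1 barcode. Cells were clustered, and 27 of 29 clusters in the septal explants and 26 of 28 in the telencephalic vesicle were named from marker genes, so a class name below means cells that resemble that type (pallial APs are pallial-like APs). The septal APs held markers such as Fgf17, Zic4 and Spry1, the striatal-type neurons Isl1, Ebf1 and Tac1, and the Lhx6 neurons Lhx6 and Lhx8. Foxp1, Foxp2 and Foxp4 were left out of the clustering and of the marker lists. AP stands for apical progenitor, BP for basal progenitor, LGE and MGE for the lateral and medial ganglionic eminences, VP for the ventral pallium and hem for the cortical hem. Levels are given as CPM, the UMIs of a gene per 1000000 UMIs of the class. They were not compared between the libraries, which differed in kit and counting software, nor between the genes, which differ in span. UMIs of genes that span at least 300 kb made up 0.598% of all UMIs of the septal explants, against 5.22% for the telencephalic vesicle. Whether introns were counted is not given in the sources used here.

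All 3 genes were detected in both libraries. Foxp1 had 6068 UMIs in the septal explants and was found in 57.7% of the cells, Foxp2 had 2212 UMIs in 26.4%, and Foxp4 had 1976 UMIs in 27.6%. For the telencephalic vesicle the corresponding values were 52761 UMIs in 73.3% of the cells, 25192 in 47.9% and 8317 in 33.7%. Erythroid-like cells were taken as a reference for free RNA, on the untested assumption that they lack these genes. Among 399 such cells of the telencephalic vesicle, with a median of 5425 UMIs, 20.3% had a Foxp1 UMI, 3.01% a Foxp2 UMI and 5.01% a Foxp4 UMI. Their levels were 39.4 CPM for Foxp1, 5.92 for Foxp2 and 7.32 for Foxp4. The 26 erythroid-like cells of the septal explants had 4.12, 10.97 and 10.97 CPM. Their median was 29045.5 UMIs, against 12942 in all neural cells of that library. Free RNA may thus be a smaller share of their UMIs than in neural cells.

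Foxp1 was broadly distributed, with its highest neural levels in progenitors and, in the telencephalic vesicle, its lowest in GABAergic neurons. Pallial APs of that library had 389.9 CPM [383.4 to 396.5] and differentiating subpallial cells 356.3 [340.9 to 372.2]. LGE APs (327.7), septal APs (312.6), VP APs (310.2), hem APs (296.8) and pallial glutamatergic neurons (293.3) followed, each overlapping the interval of a neighbour in this order. MGE APs had 246.9, Cajal-Retzius cells 229.0, BPs 218.2 and septal glutamatergic neurons 208.2. The GABAergic classes were at the bottom, with 178.2 CPM [162.0 to 195.6] in Lhx6 neurons and 147.7 [134.1 to 162.2] in striatal-type neurons. All of these neural levels were above the 39.4 CPM of the erythroid-like cells. The place of the pallial APs rested on 1 of their 3 clusters, which was the deepest (449 cells, median 18842 UMIs) and had 506.8 CPM, against 275.5 and 288.2 in the others. Without it the pallial APs had 283.1 CPM, below the septal, LGE, VP and hem APs (an alternative chosen after seeing the data). Only the pallial class lost a cluster there. Septal APs had 355.7 CPM in their deeper cluster and 242.9 in the other. Hem APs had 376.3 in their deepest cluster and 272.3 and 276.3 in the others, so these shallower clusters lay below 283.1. The shallower VP AP cluster had 289.8.

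The highest Foxp1 levels of the septal explants lay close together, between 80.8 CPM in septal APs and 92.7 in differentiating subpallial cells, and the intervals of pallial (90.2), MGE (91.2) and LGE APs (82.2) and Cajal-Retzius cells (83.1) overlapped within that range. Pallial glutamatergic neurons had 67.2, BPs 61.4 and septal glutamatergic neurons 58.3. GABAergic neurons had 38.2 [30.8 to 46.8] and hem APs 36.0 [28.5 to 44.9], and these intervals lay below those of the other neural classes named here.

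Of the named neural classes, Foxp2 had its highest levels in septal glutamatergic neurons and, in the telencephalic vesicle, next in pallial ones. Septal glutamatergic neurons of the telencephalic vesicle had 419.2 CPM [386.6 to 453.8] and pallial glutamatergic neurons 310.5 [295.2 to 326.4]. Septal APs (212.9), LGE APs (199.6) and striatal-type neurons (190.1) overlapped in their intervals, as did differentiating subpallial cells (140.5) and Lhx6 neurons (131.5). VP APs had 109.1, MGE APs 102.0, pallial APs 93.6, hem APs 82.2 and BPs 79.4, and Cajal-Retzius cells were lowest with 49.5 CPM [38.4 to 62.9]. Septal glutamatergic neurons of the septal explants also had the highest level of the named neural classes there, 96.1 CPM [82.5 to 111.3], followed by BPs with 41.2 [36.5 to 46.4]. These BPs held a cluster of 243 cells with 70.5 CPM and one of 316 cells with 25.8. The other named neural classes lay between 11.9 CPM in hem APs and 26.8 in APs without a regional name. Pallial glutamatergic neurons had 26.4 [21.7 to 31.8], below the BPs as a class. The erythroid-like reference of that library rested on 8 UMIs in 3 cells (10.97 CPM [4.74 to 21.6]), so how far the low classes, such as LGE APs (18.2), Cajal-Retzius cells (14.2) and hem APs (11.9), lay above free RNA could not be settled from it.

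Foxp4 had its highest neural levels in septal APs and BPs. In the telencephalic vesicle these had 87.9 CPM [83.9 to 92.2] and 82.3 [74.4 to 90.9], and the next classes, VP, hem, LGE and MGE APs, had 53.4, 47.9, 47.2 and 47.0. Differentiating subpallial cells had 41.7, pallial glutamatergic neurons 37.0, striatal-type neurons 35.6, Cajal-Retzius cells 34.0 and septal glutamatergic neurons 30.9, all with overlapping intervals. Pallial APs had 19.8 [18.4 to 21.3]. Lhx6 neurons had 12 UMIs in 348 cells, or 4.83 CPM [2.49 to 8.43], and 2.30% of these cells had a Foxp4 UMI at a median depth of 6238.5 UMIs. This share and level were at or below those of the erythroid-like cells, so over the class as a whole Foxp4 was not detectable above background in Lhx6 neurons. The highest neural classes of the septal explants were likewise septal APs (41.9 [38.0 to 46.1]) and BPs (36.6 [32.2 to 41.5]). The BPs held a cluster with 54.0 CPM and one with 27.4. Pallial APs (16.6), hem APs (14.1), APs without a regional name (12.3) and septal glutamatergic neurons (10.8 [6.59 to 16.7]) were the lowest, beside 10.97 CPM [4.74 to 21.6] in the erythroid-like cells, which rested on 8 UMIs.

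**Figure D1:**
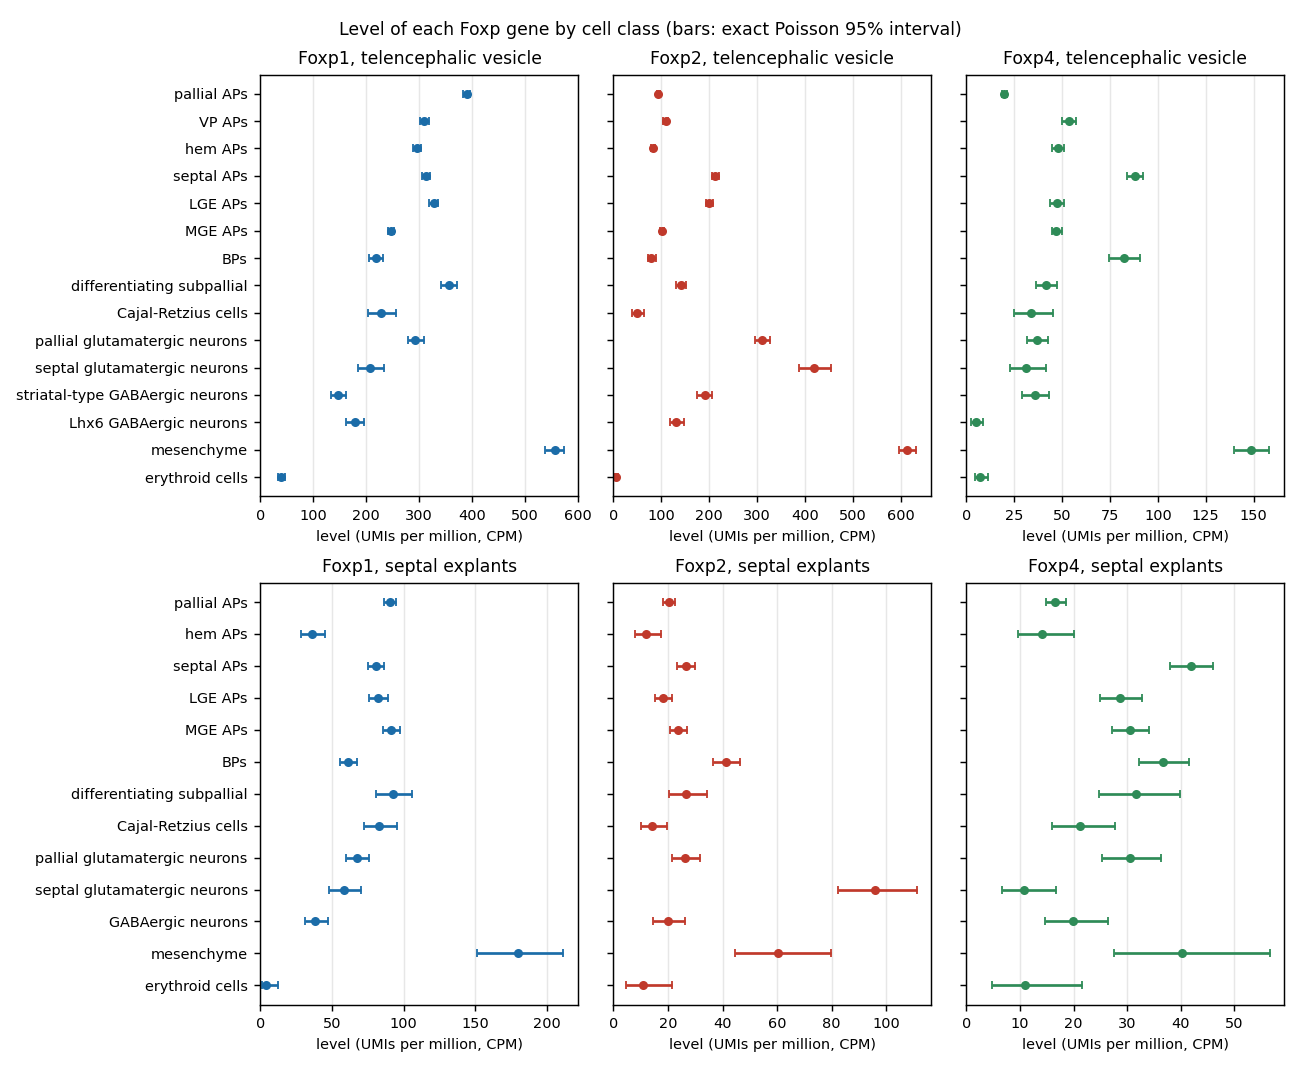
Foxp1, Foxp2 and Foxp4 levels (CPM) by cell class in each library, with exact 95% counting intervals. Among named neural classes Foxp1 was highest in pallial APs of the telencephalic vesicle (389.9 CPM, or 283.1 without their deepest cluster), Foxp2 peaked in septal glutamatergic neurons (419.2 CPM in the telencephalic vesicle) and Foxp4 in septal APs (87.9 CPM).

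To ask how the family changes as progenitors give rise to neurons, each neuron class was compared with the APs of the same territory in the same library. A ratio is the neuron CPM divided by the AP CPM. Foxp1 was lower in neurons in all 7 comparisons, with every interval below 1. In the telencephalic vesicle it was 0.451 [0.408 to 0.497] in striatal-type neurons against LGE APs (435 against 5012 UMIs), 0.722 [0.654 to 0.795] in Lhx6 neurons against MGE APs, 0.752 [0.712 to 0.794] in pallial glutamatergic neurons against pallial APs and 0.666 [0.592 to 0.748] in septal glutamatergic neurons against septal APs. Among the septal explants it was 0.437 [0.350 to 0.540] in GABAergic neurons against subpallial APs, 0.745 [0.654 to 0.846] in pallial and 0.721 [0.584 to 0.882] in septal glutamatergic neurons. A decrease of at least 2-fold was seen in 2 of the 7 comparisons, both with GABAergic neurons. The striatal-type ratio did not reach 2-fold as a mean of cells (0.508), with doublets kept (0.523) or with all deposited barcodes (0.522).

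The pallial value of the telencephalic vesicle depended on 1 cluster. Without the deepest pallial AP cluster the Foxp1 ratio was 1.04 [0.977 to 1.10], with the direction turned and an interval that held 1, and the Foxp1 ratio was 0.983 when every cell was thinned to 3500 UMIs. Its part in the result was not tested.

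In the level of a class, Foxp2 went the other way in most comparisons. It was 3.32 [3.12 to 3.52] times as high in pallial glutamatergic neurons as in pallial APs of the telencephalic vesicle and 1.97 [1.81 to 2.14] times in septal glutamatergic neurons against septal APs. Within the septal library it was 3.63 [2.98 to 4.405] times as high in septal glutamatergic neurons (178 UMIs in 141 cells) and 1.30 [1.04 to 1.61] in pallial ones. In Lhx6 neurons it was 1.29 [1.15 to 1.45]. Striatal-type neurons (0.952 [0.869 to 1.04]) and the GABAergic neurons of the septal explants (0.932 [0.675 to 1.26]) had intervals that held 1. The interval was above 1 in 5 comparisons, and the increase was at least 2-fold in 2 of the 7. In cells thinned to equal depth, a smaller share of neurons than of APs had a Foxp2 UMI in the telencephalic vesicle. It was 22.3% against 45.7% in septal, 21.6% against 25.2% in pallial (intervals overlapped) and 17.7% against 26.4% in Lhx6 neurons. Striatal-type neurons had 28.5% against 42.5%. Thinned septal explants had 29.7% against 18.3% in septal, 17.7% against 13.99% in pallial and 8.99% against 15.1% in GABAergic neurons.

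Foxp4 was lower in septal and GABAergic neurons than in the matching APs and higher in pallial ones. It was 0.352 [0.256 to 0.473] in septal glutamatergic neurons against septal APs of the telencephalic vesicle and 0.258 [0.156 to 0.403] in the septal explants, with 20 UMIs in the neurons (10.8 CPM, beside 10.97 in the erythroid-like cells). At a Leiden resolution of 2.5, a further cluster of the septal explants (117 cells) was named septal glutamatergic neurons. It had 41.9 CPM [30.7 to 55.9] of Foxp4, against 9.88 in the other cluster of that name (138 cells). In Lhx6 neurons against MGE APs the Foxp4 ratio was 0.103 [0.0529 to 0.180], the lowest ratio of the family (12 against 1240 UMIs), with the neuron level not above background. In striatal-type neurons it was 0.755 [0.609 to 0.928], and in GABAergic neurons of the septal explants 0.671 [0.488 to 0.902]. In pallial glutamatergic neurons it was 1.87 [1.58 to 2.20] in the telencephalic vesicle and 1.84 [1.48 to 2.27] in the septal explants. The value of the telencephalic vesicle passed 2-fold with another random seed and at other clustering resolutions (given below). The pallial neurons of the septal explants held a cluster of 100 cells with 48.0 CPM [37.0 to 61.1] and one of 242 cells with 21.9 [16.8 to 28.2]. The pallial AP clusters of that library had 11.1 to 26.1 CPM, so the larger neuron cluster lay within their range. The interval of the Foxp4 ratio was below 1 in 5 comparisons and above 1 in 2, with at least 2-fold lower values in 3.

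Large ratios were common among all genes with at least 50 UMIs in the compared classes. In the telencephalic vesicle, 13% of the genes were at least 2-fold higher and 19.9% at least 2-fold lower in striatal-type neurons than in LGE APs, so that the 2.22-fold decrease of Foxp1 was one of many. For Lhx6 neurons, among which Foxp4 was the only FoxP gene past 2-fold, 13.7% were higher and 19.2% lower. For pallial glutamatergic neurons, with Foxp2 past 2-fold, 16.5% were higher and 22.1% lower, and for septal glutamatergic neurons, with Foxp4 past 2-fold, 15.7% were higher and 22.9% lower. For the septal explants 14% were higher and 17.1% lower in GABAergic neurons (Foxp1 past 2-fold), 15.6% and 16.4% in pallial (no FoxP gene past 2-fold) and 14.6% and 18.1% in septal glutamatergic neurons (Foxp2 higher, Foxp4 lower). Foxp2 in septal neurons of the septal explants had 5.81% of the genes above it, and Foxp4 in Lhx6 neurons had 1.86% of the genes below it.

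Genes with long spans had larger ratios in both directions than genes overall in most comparisons, and Foxp1 and Foxp2 are long. In pallial glutamatergic neurons of the telencephalic vesicle, 40.1% of the 511 tested genes of at least 300 kb were at least 2-fold higher, with a median log2 ratio of 0.46 against -0.14 over all genes. The corresponding share was 42.5% for septal glutamatergic, 35.2% for Lhx6 and 29.6% for striatal-type neurons. The neurons took 7.32 to 10.2% of their UMIs from such genes and the APs 4.55 to 6.31%. The septal explants' shares of long genes at least 2-fold higher were 26.5%, 37.5% and 35.5% for GABAergic, pallial and septal neurons. Long genes at least 2-fold lower were 31.2% in striatal-type neurons, where the median log2 ratio of long genes was -0.05, 23.2% in Lhx6, 21.7% in pallial and 20.5% in septal neurons of the telencephalic vesicle. For the septal explants these shares were 22.5%, 20.3% and 21.6%. Of the 2 long members, Foxp2 was higher in glutamatergic neurons and Foxp1 had ratios below 1 in all 7 comparisons. The pallial Foxp1 ratio of the telencephalic vesicle was 1.04 without the deepest pallial AP cluster. The part of gene span in these results was not tested.

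**Figure D2:**
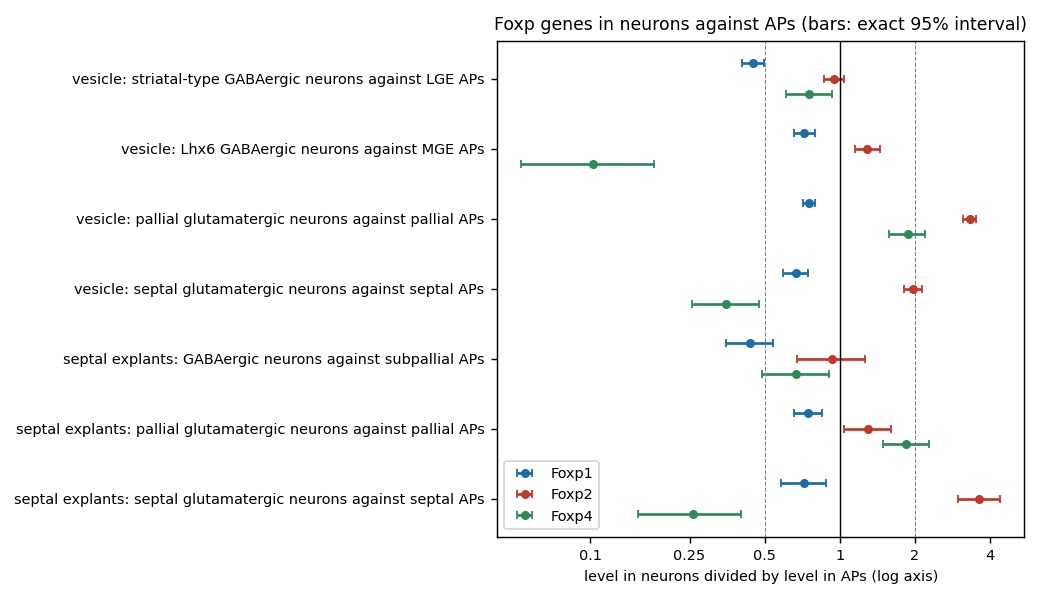
Ratios of neurons to APs of the same territory (log2 axis) for Foxp1, Foxp2 and Foxp4 with exact 95% counting intervals. Foxp1 lies below 1 in 7 comparisons (pallial neurons of the telencephalic vesicle at 1.04 without the deepest AP cluster), Foxp2 above 1 in 5 and Foxp4 on both sides.

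Between the AP territories Foxp4 showed the largest differences of the family. Against pallial APs it was 4.44 [4.06 to 4.85] times as high in septal APs of the telencephalic vesicle and 2.53 [2.18 to 2.94] times in septal APs of the septal explants. The corresponding ratios were 2.38 in LGE APs, 2.37 in MGE APs and 2.42 in hem APs of the telencephalic vesicle, and 1.73, 1.84 and 0.853 in the septal explants. At a Leiden resolution of 2.5, a further cluster of the septal explants (78 cells) was named hem APs. It had 35.3 CPM [24.9 to 48.7] of Foxp4, against 11.98 [7.21 to 18.7] in the other (96 cells). Pallial APs had 16.6 at the main resolution, so the direction of that hem ratio depended on which cells were named hem APs. The hem AP clusters of the telencephalic vesicle were unlike, at 28.4, 55.9 and 91.5 CPM of Foxp4. The lowest and largest of them (497 cells, interval 25.4 to 31.6) overlapped a pallial AP cluster at 27.5 [23.9 to 31.6]. The septal AP clusters of the telencephalic vesicle had 64.7 and 102.3 CPM and the 3 pallial AP clusters 16.5 to 27.5, without overlap. In the septal explants the septal AP clusters had 26.3 to 51.4 CPM and the pallial AP clusters 11.1 to 26.1. There the intervals of the lowest septal (20.8 to 32.8) and the highest pallial cluster (21.7 to 31.1) overlapped. Foxp2 was 2.27 [2.17 to 2.38] times as high in septal APs and 2.13 [2.03 to 2.24] times in LGE APs as in pallial APs of the telencephalic vesicle, against 1.30 [1.11 to 1.53] and 0.897 [0.733 to 1.09] in the septal explants. Foxp1 was lower than in pallial APs in the septal, LGE, MGE and hem APs of the telencephalic vesicle, at 0.633 to 0.840. Without the deepest pallial AP cluster the pallial level (283.1 CPM) was below those of the septal (312.6), LGE (327.7) and hem APs (296.8) and above that of the MGE APs (246.9). The direction against septal, LGE and hem APs thus turned, but only the pallial class lost its deepest cluster. The shallower septal AP cluster had 242.9 CPM and the shallower hem AP clusters 272.3 and 276.3, below that pallial level. Foxp1 was 0.399 [0.314 to 0.5002] in hem APs of the septal explants. At resolution 2.5 their further cluster had 57.3 CPM [43.7 to 73.8] of Foxp1 and the other 28.995 [21.2 to 38.7]. Both were below the 90.2 CPM of pallial APs at the main resolution.

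Of all genes tested, 7.14% were at least 2-fold higher in septal than in pallial APs of the telencephalic vesicle and 6.99% in those of the septal explants. For LGE APs the shares were 4.12% and 2.31%, and for MGE APs 5.55% and 4.78%. In hem APs 8.98% of the genes were at least 2-fold higher in the telencephalic vesicle, where Foxp4 was, and 3.04% at least 2-fold lower in the septal explants, where Foxp1 was. The septal ratio of Foxp4 in the telencephalic vesicle had 1.91% of the genes above it.

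The neurons of the telencephalic vesicle did not carry Foxp2 evenly. Had the UMIs of a class followed the depth of its cells alone, 12.49% of the 633 pallial glutamatergic neurons of the telencephalic vesicle would have had no Foxp2 UMI, but 67.5% had none. In septal glutamatergic neurons the observed and expected shares were 66.7% and 5.31%, in striatal-type neurons 60.5% and 27.9%, and in Lhx6 neurons 74.4% and 42.2%. The 10% of cells with most Foxp2 UMIs held 81.7% of the UMIs of the class in pallial and 85.2% in septal glutamatergic neurons, 65.5% in striatal-type and 75.5% in Lhx6 neurons, against 45.6 to 59.1% in the AP classes. The gaps in APs were smaller in percentage points, at 47.9% against 36.1% in pallial, 46.0% against 25.6% in VP and 17.01% against 6.69% in LGE APs. Septal glutamatergic neurons of the septal explants showed the same kind of gap, at 60.3% against 30.9%. The gap was small in pallial glutamatergic neurons of that library (75.7% against 73.0%) and in its GABAergic neurons (87.4% against 80.8%), which had 109 and 48 Foxp2 UMIs.

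Foxp4 was near its expectation in every neuron class of the telencephalic vesicle, at 77.4% against 75.5% in pallial, 76.7% against 75.7% in septal and 80.0% against 77.2% in striatal-type neurons. Foxp1 lay between these, at 26.7% against 13.8% in pallial and 34.7% against 20.1% in septal glutamatergic neurons. Foxp4 had few UMIs in these neurons (183 in 633 pallial and 45 in 150 septal ones), which leaves the share little room to differ. How evenly Foxp4 was carried can therefore not be compared with Foxp2 or Foxp1. In the AP classes its shares ran from 73.9% against 72.9% in pallial APs to 54.1% against 46.4% in VP APs.

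**Figure D3:**
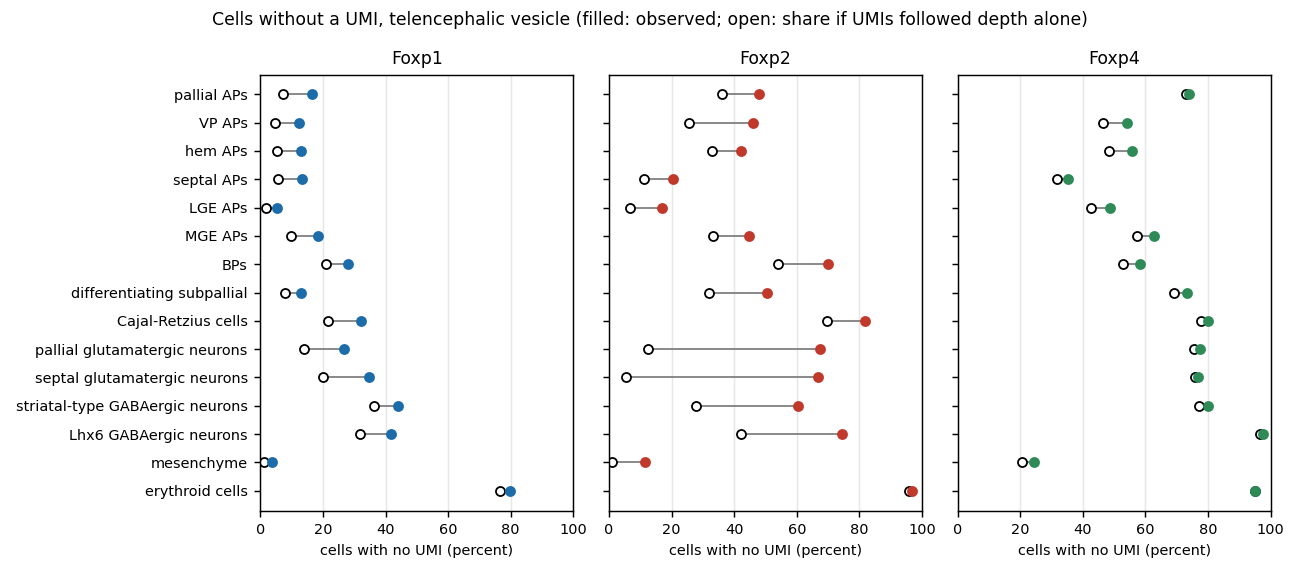
Share of cells without a UMI (percent) for each gene and class, observed (filled) and as it would be if UMIs followed cell depth alone (open). The filled and open points of Foxp2 are far apart in glutamatergic neurons (67.5% against 12.49% in pallial ones). Those of Foxp4 nearly coincide there, where it had few UMIs.

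The pallial glutamatergic neurons of the telencephalic vesicle were then split by their own Foxp2 UMIs. There were 48 cells with 10 or more, up to 74, 158 cells with 1 to 9, and 427 cells with none. This split was chosen after the distribution was seen, and the values are a description. Foxp1 was higher in each group with more Foxp2, from 225.6 CPM [209.4 to 242.6] in cells without Foxp2 to 311.7 [281.3 to 344.4] and 672.1 [602.9 to 747.0] in the cells with most Foxp2. Calb2, a calcium-binding protein of Cajal-Retzius and other neurons, followed the same order, from 148.9 to 260.7 and 369.2 CPM. Eomes, a factor of BPs, was at 343.8, 333.5 and 117.2 CPM, and Fezf2, a factor of deep-layer neurons, at 63.2, 40.5 and 11.7. Tbr1, a factor of postmitotic glutamatergic neurons, was close in the 3 groups, at 393.5, 378.1 and 410.3 CPM. Foxp4 was at 29.7 [24.0 to 36.3], 46.1 [35.0 to 59.8] and 60.6 CPM [41.2 to 86.0].

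In the other neuron classes only cells without Foxp2 and cells with 1 to 9 Foxp2 UMIs were compared. The groups with 10 or more were too small and were left out (15 septal, 13 striatal-type and 8 Lhx6 cells). Between the 2 groups compared, the order was not the same in every class. In septal glutamatergic neurons Foxp1 was at 226.5 CPM [196.0 to 260.3] in the 100 cells without Foxp2 and 134.7 [100.3 to 177.2] in the 35 cells with 1 to 9 Foxp2 UMIs. Calb2 was at 475.8 and 227.2, so both were lower in the cells with 1 to 9 Foxp2 UMIs. How they stood in the septal cells with most Foxp2 is not given by these groups. Foxp1 was at 139.7 and 154.6 CPM in the same groups of striatal-type neurons, with overlapping intervals, and at 149.8 [132.0 to 169.3] and 242.6 [206.6 to 283.1] in Lhx6 neurons. In Lhx6 neurons 11 of the 12 Foxp4 UMIs lay in the 81 cells with 1 to 9 Foxp2 UMIs, at 16.6 CPM [8.27 to 29.7].

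In the pallial class, the genes with the largest ratio between the cells with 10 or more Foxp2 UMIs and those with none were Kcnc2 (80.1 against 6.57 CPM, 12.2 [7.04 to 21.7] times), Sox2ot, Dlgap1, Zic1, Grm8, Arhgap28, Fbxl7, Lrrc4c, Nrxn3 and Eda, the last 9 at 3.83 to 4.43 times. Of these 10 genes, 7 span at least 300 kb. Zic1 (95.7 against 22.8 CPM) was also a marker of the septal glutamatergic neurons of that library, and Calb2 was among the leading genes of the latter. Whether the pallial cells with most Foxp2 took in septal-like neurons was not tested. The cells with most Foxp2 were deeper, with a median of 8977.5 UMIs against 6806, and took 10.8% of their UMIs from genes of at least 300 kb, against 8.48%. The part of depth and gene span in these differences was not tested.

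Finer clustering of the telencephalic vesicle, at a Leiden resolution of 2.5, gave 3 clusters named as pallial glutamatergic neurons. They did not hold the same cells as the class at the main resolution, in which Otp had 11 UMIs, all in cells without Foxp2. A cluster of 252 cells led by Nxph1 and Arpp21 had 517 CPM of Foxp2 and 366.2 of Foxp1. A cluster of 294 cells led by Cntn5 and Dscaml1 had 197.4 and 236.2 CPM, and a cluster of 109 cells led by Otp and Sim1 had 44.7 and 205.6. Foxp4 was at 44.1, 28.6 and 100.9 CPM in the same order, highest in the cluster led by Otp and Sim1, genes that were among the leading genes of the BPs (82.3 CPM of Foxp4) at the main resolution.

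Along an axis of differentiation, on which the cells of a territory were ordered by neuronal against AP genes and cut into 10 bins of equal size, the genes peaked in different bins. In the pallial cells of the telencephalic vesicle Foxp2 lay between 77.6 and 118.5 CPM in bins 1 to 8, then at 134.8 in bin 9 and 423.1 in bin 10. Foxp1 was highest in bin 4 (395.7 CPM), lowest in bin 8 (221.2) and at 330.3 in bin 10. Foxp4 was highest in bin 8 (74.2 CPM), and at 38.5 in bin 10. The share of UMIs from genes of at least 300 kb went from 4.46% in bin 1 to 9.62% in bin 10, so it moved with Foxp2.

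In the septal cells of the telencephalic vesicle Foxp2 was at 169.6 CPM in bin 9 and 576.8 in bin 10, while Foxp4 went from 111.9 in bin 8 to 23.9 in bin 10. On the septal axis of the septal explants, Foxp2 went from 30.0 CPM in bin 8 to 76.0 and 98.6 in bins 9 and 10, and Foxp4 from 50.9 in bin 8 to 24.1 and 11.3. On the pallial axis of that library Foxp2 was highest in bin 7 (40.5 CPM) and at 29.0 in bin 10. This axis took in all BPs, among them the cluster of 243 cells with 70.5 CPM of Foxp2. Its leading genes D930028M14Rik and Onecut2 were also leading genes of the septal glutamatergic neurons, so these cells need not be pallial. Their part in the peak was not tested. Lower Foxp4 and higher Foxp2 thus lay in the last bins of the septal axis in each library. That axis held only septal APs and septal glutamatergic neurons, so this largely repeats the ratios of these classes and is not a separate result. In the subpallial cells Foxp1 was highest in bin 8 (336.0 CPM in the telencephalic vesicle and 107.4 in the septal explants) and lowest in bin 10 (145.8 and 39.0). Subpallial Foxp2 was at 126.4 to 153.0 CPM in bins 1 to 9 and 199.8 in bin 10 of the telencephalic vesicle.

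**Figure D4:**
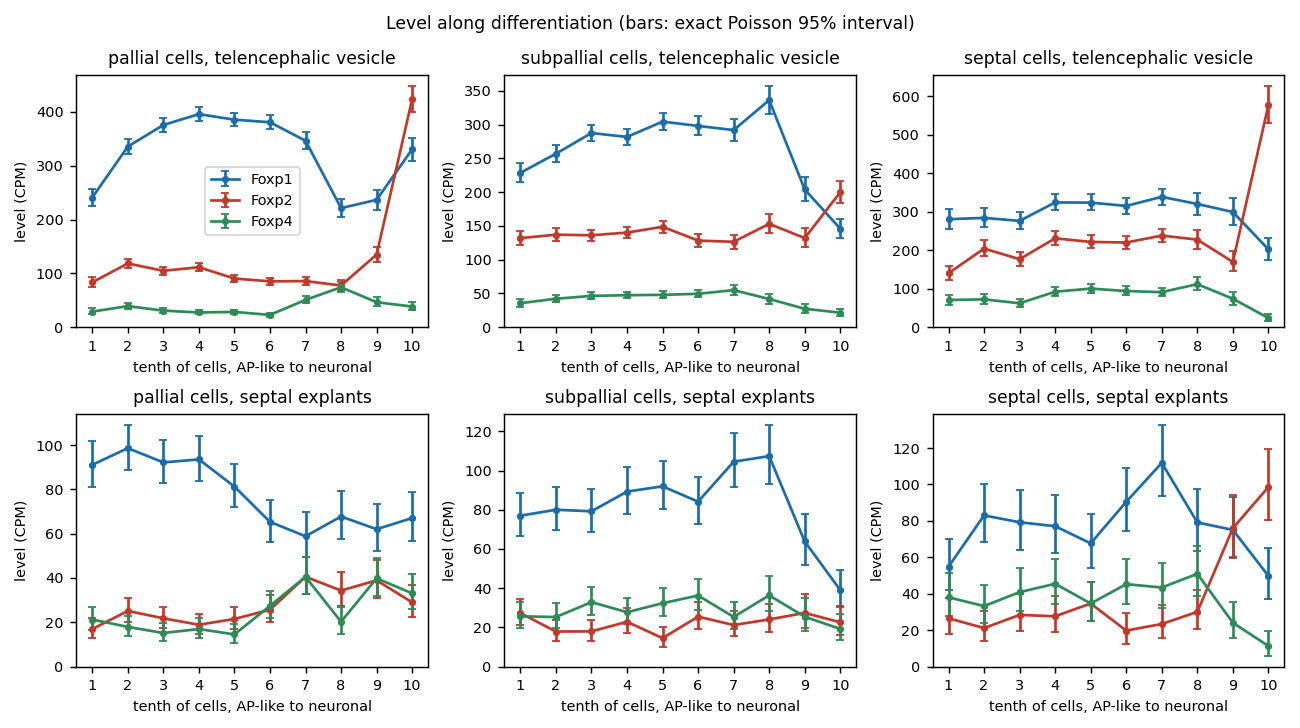
Foxp1, Foxp2 and Foxp4 levels (CPM) in 10 bins along the axis from APs to neurons, for pallial, septal and subpallial cells of each library, with exact 95% counting intervals. Foxp2 was highest in the last bin of the pallial and septal axes of the telencephalic vesicle (423.1 and 576.8 CPM), where septal Foxp4 was lowest (23.9 CPM).

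Detection of one member in a cell was compared with detection of another within a class and among cells of like depth. The interval of the ratio of observed to expected cells positive for both held 1 in 73 of 75 combinations of class and gene pair. It lay above 1 in 2, both for Foxp2 with Foxp4, at 1.35 [1.07 to 1.67] in BPs of the septal explants and 1.31 [1.01 to 1.66] in pallial glutamatergic neurons of the telencephalic vesicle, and below 1 in 0. The intervals were not adjusted for the 75 combinations. They treat the count of cells positive for both as free to vary, although the shares of the 2 genes bound it. In LGE APs of the telencephalic vesicle 94.6% of the 576 cells had Foxp1 and 83.0% Foxp2, so there the interval had to hold 1. The tally can therefore not show that the members were detected independently.

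Across classes, the members were not each other's nearest genes. Over the 17 classes of the telencephalic vesicle, the Pearson correlation of log2(CPM + 1) was 0.640 for Foxp1 with Foxp2, 0.599 for Foxp1 with Foxp4 and 0.560 for Foxp2 with Foxp4. Over the 14 classes of the septal explants it was 0.488, 0.573 and 0.201. The genes closest to Foxp1 were Arhgap42 (0.967), Ext2, Hif1a, Fbxw8 and Zfp651 among 12364 genes in the telencephalic vesicle, and Zbtb11 (0.953), 2010107E04Rik, Bend3, Phf2 and Rac1 among 10469 in the septal explants. For Foxp2 they were Mvk (0.937), Dctn4, Nrd1, Sept6 and Ptpn23, and Pip4k2a (0.873), Mkl1, Gatb, Snx30 and Crabp1. For Foxp4 they were Mier3 (0.835), Bbx, Ptpdc1, Sirt1 and Hykk, and Capn6 (0.820), Zfp944, Rasl11b, Gm2000 and Phldb2. The lists of the libraries had no gene in common. The classes of each library include its mesenchyme-like and erythroid-like cells. In the telencephalic vesicle the 3 members had 556.7, 613.2 and 148.8 CPM in mesenchyme-like cells, above every neural class. In its erythroid-like cells they had 39.4, 5.92 and 7.32 CPM. The correlations thus also take in these non-neural classes, and values over neural classes alone were not computed. The classes of a library share its depth and free RNA, and these correlations are descriptions.

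The proteins that FoxP factors work with were read in the same comparisons. The list holds 21 corepressors and partners, such as the NuRD subunits Chd3, Chd4, Mta1 and Rbbp7 and the histone deacetylases Hdac1 and Hdac2. In pallial glutamatergic neurons of the telencephalic vesicle 2 of 21 were at least 2-fold higher and 4 lower, beside 16.5% and 22.1% of all genes. The median log2 ratio was -0.07 against -0.14 over all genes. Nr2f2, an orphan nuclear receptor, was at 5.40 times the AP level, while Rbbp7 (0.332) and Sox5 (0.436) were among the lower ones. In striatal-type neurons 2 of 21 were higher (Chd3 at 3.47 and Nr2f2 at 3.45) and 4 lower, in Lhx6 neurons 1 and 5, and in septal glutamatergic neurons 2 and 3, where Nr2f2 was at 41.7 and Nr2f1 at 10.4 times the AP level. Counts for the septal explants were 2 higher and 1 lower of 19 in GABAergic neurons (Chd3 at 2.65), 3 and 2 of 20 in pallial and 0 and 1 of 18 in septal glutamatergic neurons. Rbbp7, a histone chaperone, was at 0.423, 0.379 and 0.426 of the AP level in these 3 comparisons. Over all genes, 13 to 16.5% were at least 2-fold higher and 19.2 to 22.9% lower in the comparisons of the telencephalic vesicle. For the septal explants these shares were 14 to 15.6% and 16.4 to 18.1%. The median log2 ratios of the list were -0.04 (striatal-type), -0.04 (Lhx6) and 0.02 (septal) in the telencephalic vesicle, against -0.14, -0.09 and -0.14 over all genes, and 0.11, 0.06 and -0.08 in the septal explants, against 0.03, 0.02 and -0.03.

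Genes reported as targets of FoxP factors numbered 9, of which 5 to 8 were tested. Of these, 4 of 8 were at least 2-fold higher and 0 lower in pallial glutamatergic neurons of the telencephalic vesicle, namely the axon guidance ligand Slit1 (4.83), the transcription factor Mef2c (3.28), the retinoic acid receptor Rarb (2.62) and the adhesion molecule Cntnap2 (2.53). In septal glutamatergic neurons 4 of 7 were higher and 1 lower, with Slit1 at 18.1 times the AP level, and in Lhx6 neurons 4 of 8 were higher and 1 lower, with the Notch ligand Jag1 at 0.203. In striatal-type neurons 1 of 7 was higher and 1 lower (Slit1 at 3.59, Jag1 at 0.246). Among the septal explants 2 of 5 were higher and 1 lower in GABAergic neurons, with Mef2c at 20.03 times the AP level, 1 and 1 of 5 in pallial and 2 and 0 of 5 in septal glutamatergic neurons. The median log2 ratios were 0.21 (striatal-type), 1.05 (Lhx6), 0.65 (pallial) and 1.20 (septal) in the telencephalic vesicle and -0.39, -0.23 and -0.19 in the septal explants, beside the all-gene medians and shares given above.

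The other forkhead genes, 41 in each library, were mostly too low to test. Of the 11 to 13 tested in each comparison, 0 to 1 were at least 2-fold higher and 1 to 6 lower. Of all genes, 13 to 16.5% were higher and 16.4 to 22.9% lower in these comparisons. Foxm1, a factor of dividing cells, was lower in all 7 comparisons, at 0.0412 [0.00498 to 0.150] of the AP level in septal (2 UMIs) and 0.145 in pallial glutamatergic neurons of the telencephalic vesicle. Foxo1, Foxo4 and Foxj1 were at 0.232, 0.209 and 0.299 (3 UMIs, interval 0.0603 to 0.910) in pallial glutamatergic neurons of the telencephalic vesicle. The median log2 ratio of the tested genes was below 0 in each comparison, from -0.87 to -0.02, while the all-gene median was also below 0 in all but the GABAergic and pallial comparisons of the septal explants and, for Lhx6 neurons, below that of the forkhead genes (-0.09 against -0.02). The genes at least 2-fold higher were Foxo6 in Lhx6 neurons (2.36) and Foxo3 in septal glutamatergic neurons (2.48). In pallial glutamatergic neurons of the telencephalic vesicle 0 of the 13 other forkhead genes tested were at least 2-fold higher, beside 16.5% of all genes.

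Reporter transcripts divided some cells of the septal explants by litter group, although age, genotype and reporter cannot be told apart. In pallial APs without a YFP UMI (384 cells) Foxp1 was at 107.6 CPM [99.7 to 116.0] and Foxp4 at 22.3 [18.7 to 26.3], against 77.8 [72.5 to 83.3] and 12.6 [10.5 to 14.9] in the 539 pallial APs with at least 3 YFP UMIs. In septal APs the same groups overlapped, at 78.6 and 82.0 CPM for Foxp1 and 48.7 and 40.2 for Foxp4. The median depth of the pallial groups was 14802 and 17779 UMIs.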

How the data were processed

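Droplet libraries (10x Genomics kit version 2 for the septal explants, 3.1 for the telencephalic vesicle) had been aligned to mm10 and counted by the authors with Cell Ranger 2.1.1 and 7.1.0, per the labels and the submitters' processing notes. The deposited matrices hold raw UMI counts per gene and barcode. No normalised value was used.

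Barcodes with a mitochondrial share more than 3 median absolute deviations (scaled to a normal standard deviation) from the median, on either side, were removed (383 and 1812). Doublets at a Scrublet score of 0.25 were removed next (77 and 884). The automatic threshold gave 5 and 657 doublets, and 0.25 was set after seeing the data. After scaling each cell to 10000 UMIs and taking logs, clusters were drawn from 2000 variable genes (cell cycle genes and the 3 members left out), 30 principal components, 15 neighbours and Leiden resolution 1.5 (scanpy 1.11.5, igraph 0.11.9, Python 3.11.15). Clusters were named from marker lists, at least 3 markers being needed; the naming rule was completed after the clusters were seen, and 292 and 1084 cells stayed unnamed.

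Counts were summed per class, and CPM intervals are exact Poisson, shares exact Clopper-Pearson and ratios from an exact binomial split (scipy 1.17.1), all at 95%. They cover counting error only, since cells are not replicates and each library is 1 sample. A gene entered a comparison with at least 50 UMIs in both classes together. Gene positions come from GENCODE vM21 on GRCm38. The genes named are the 3 members, the 5 genes most like each in each library, and up to 4 genes of each list with the largest ratios, except for items that are not reported here. Members and lists were chosen with earlier results of these data known. The calculations were tested on simulated data. Alternatives were other clustering resolutions and seeds, doublets or all barcodes kept, at least 2000 genes per cell, cell cycle genes kept, thinning, the mean over cells, median-ratio scaling, other count minimums and 5 bins.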

Additional observations from a re-analysis of the deposited data

Results flagged for a closer look

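In the septal explants, a cluster of 149 cells that stayed unnamed, led by Calb2, Tfap2e and Cbln2 and outside all comparisons, had a Foxp2 level of 134.0 CPM [118.7 to 150.7]. This was above the 10.97 CPM of the erythroid-like cells of that library. It was also above the septal glutamatergic neurons (96.1 [82.5 to 111.3]), the highest of the named neural classes there. At a Leiden resolution of 2.5, a cluster of 229 cells led by the same genes had 99.5 CPM of Foxp2. It scored on the Cajal-Retzius markers, but Trp73, Reln, Lhx1, Lhx5 and Ebf3 were not among its 10 leading genes, and the other clusters of that name had 11.04 and 23.4 CPM.

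In the telencephalic vesicle, 491 mesenchyme-like cells, which entered no comparison of neurons with APs, had a Foxp1 level of 556.7 CPM, a Foxp2 level of 613.2 CPM and a Foxp4 level of 148.8 CPM. These were above every neural class and above the 39.4, 5.92 and 7.32 CPM of the erythroid-like cells. Finer clustering gave Foxp2 levels of 823 CPM in 264 cells led by Dkk2 and Col1a1 and 367.9 CPM in 227 cells led by Crabp1 and Crym. The 44 mesenchyme-like cells of the septal explants had 179.6, 60.3 and 40.2 CPM.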

How the results depend on the processing

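No paired analysis was possible because each library is 1 sample and carries no replicate number shared with another. Of 78 ratios under alternatives, 52 moved by less than the counting interval, 25 moved further and 1 turned its direction. A turn was counted only where the main interval excluded 1. Foxp2 in striatal-type neurons, at 0.952 [0.869 to 1.04], was thus not counted as turned at 1.07 with cell cycle genes kept. These 78 ratios cover striatal-type and pallial glutamatergic neurons of the telencephalic vesicle and GABAergic neurons of the septal explants. The ratios of Lhx6 neurons, of septal glutamatergic neurons in both libraries and of pallial glutamatergic neurons in the septal explants were not among them. Without the deepest pallial AP cluster, the ratios of pallial glutamatergic neurons to pallial APs in the telencephalic vesicle were 1.04 for Foxp1, which reversed, 4.20 for Foxp2 and 1.62 for Foxp4. In the same comparison, Foxp1, Foxp2 and Foxp4 were 0.687, 4.26 and 2.32 at Leiden resolution 0.8, 0.684, 4.78 and 2.43 with another random seed, 0.690, 4.29 and 2.26 in cells with at least 2000 genes, and 0.695, 3.65 and 2.51 with cell cycle genes kept. At resolution 2.5 Foxp1 was 0.684 and Foxp4 2.73. Foxp4, at 1.87 in the main clustering, thus passed 2-fold under these alternatives, though not without the deepest pallial AP cluster (1.62). Foxp1 was 0.850 and Foxp2 3.02 as the mean of cells, 0.983 and 2.88 with cells thinned to 3500 UMIs, and Foxp2 2.68 with doublets kept and 2.88 with all deposited barcodes. In striatal-type neurons against LGE APs Foxp1 was 0.508 as the mean of cells, 0.523 with doublets kept and 0.522 with all deposited barcodes, which ends the 2-fold call, and Foxp2 was 1.07 with cell cycle genes kept. The cause was not tested, beyond the cluster and depth values given above.

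With a minimum of 10 UMIs the genes at least 2-fold higher in neurons of the telencephalic vesicle went from 1529 to 2445 (striatal-type), 1732 to 2648 (Lhx6), 2172 to 3361 (pallial) and 1953 to 3076 (septal). With 5 bins the highest Foxp4 bin became 5 in pallial and 3 in subpallial cells of the septal explants. A minimum of 2 UMIs moved all 81 shares of positive cells. Resolution 0.8 gave no LGE AP class and a minimum of 2000 genes no GABAergic class in the septal explants, so these ratios could not be given. Median-ratio scaling shifted the log2 ratios by 0.03 to 0.11. The free RNA reference of the septal explants, which rests on 8 Foxp2 and 8 Foxp4 UMIs in 26 cells, limits what can be said of the low classes there.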

Other observations

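Endothelial-like cells of the telencephalic vesicle (22 cells) had 392.6 CPM of Foxp1, 42.9 of Foxp2 and 20.1 of Foxp4, and macrophage-like cells (74 cells) had 242.1, 46.5 and 25.8 CPM. At a Leiden resolution of 2.5 an unnamed cluster of 123 barcodes in the same library, with a median of 977 UMIs, had 582.4 CPM of Foxp1, 132.7 of Foxp2 and 29.5 of Foxp4.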
